A study of Rattus norvegicus with 14 samples.

Results

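Isg15, Oas1b, Mx1, Mx2, Irf1, Irf7, Irf9 and Stat2 are 8 rat genes of the type I interferon response, taken here by gene symbol from a one-colour array whose 41012 probes carried 35481 target names. Each was represented by 1 probe, and 7 of the 8 probes passed the filter, which asked for both arrays of 1 line or more to be well above background. Mx2 did not pass and was not tested.

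Total RNA of 7 rat cell lines was hybridised to 14 arrays, 2 per line, called A and B. Fi1 (Fischer, male), Fi2 (Fischer, female) and Wk8 (Wistar-Kyoto, female) came from blastocysts. CL19 (Fischer, female), 3C3 (Fischer, male) and RMAPC-1 (Fischer, male) came from bone marrow, and RClone-2 (Fischer, male) was the mesenchymal control. The study set bone marrow-derived and blastocyst-derived hypoblast stem cells, grown in the culture condition for multipotent adult progenitor cells (MAPC), beside each other and beside the control. Nothing in the labels names an interferon, a virus or another agent given to any line. The mesenchymal group was a single line, so a difference from it describes RClone-2 and not mesenchymal cells in general.

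Type I interferons bind a receptor at the cell surface whose kinases JAK1 and TYK2 phosphorylate STAT proteins, among them STAT2. STAT2 and IRF9 are subunits of the complex ISGF3, which binds the interferon-stimulated response element (ISRE) before genes such as Isg15, Mx1 and the Oas1 family. IRF1 is itself induced through a gamma-activated site (GAS), and IRF7 amplifies the transcription of interferon genes. In mouse embryonic stem cells and early embryonic lineages the interferon response is known to be attenuated.

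The probes of Isg15, Irf7 and Mx1, the members called in both comparisons with RClone-2, are shown because each result rests on this single 60-base target, printed 5′ to 3′ as in the scanner files, with the rat genome build rn4.
Isg15, chr5:173034674-173034733, minus strand: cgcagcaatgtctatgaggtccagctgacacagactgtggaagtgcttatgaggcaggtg
Irf7, chr1:201456889-201456948, minus strand: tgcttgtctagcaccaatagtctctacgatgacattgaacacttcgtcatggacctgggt
Mx1, chr11:37439631-37439690, minus strand: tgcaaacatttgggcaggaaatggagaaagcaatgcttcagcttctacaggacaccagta
The probes of Irf1 (chr10:39224461-39224695), Stat2 (chr7:1579523-1579779) and Mx2 (chr11:37568920-37570815) span more genome than their 60 bases, all on the plus strand. Those of Oas1b (chr12:36858513-36858572, minus strand) and Irf9 (chr15:33744668-33744727, plus strand) were contiguous. Which exon or untranslated region a probe lies in was not looked up, as no annotation of rn4 was used. Oas1b and Mx1 belong to families of similar genes, and cross-hybridisation to paralogs was not tested.

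Promoter windows reaching 250 bases before and 50 bases after the gene start were held for 6 members (RefSeq, GRCr8). They were searched on both strands for an ISRE core, GAAANNGAAA, and a GAS core, TTCNNNGAA, which are binding sites of ISGF3 and of STAT dimers. The ISRE core lay in 2 of the 6 windows (Oas1b, Irf7) and in 3.92% of 33469 rat promoter windows of the same length. The GAS core lay in 3 of the 6 (Oas1b, Irf1, Irf9) and in 8.87% of all windows. The Mx1 and Stat2 windows held neither spelling. The 120 bases around the matches are printed with the matching bases in capitals, since these are the sites through which the pathway is known to act. The ISRE cores are capitalised for Oas1b and Irf7, and the GAS cores for Irf1 and Irf9.
Oas1b, chr12:41395853-41395972, minus strand: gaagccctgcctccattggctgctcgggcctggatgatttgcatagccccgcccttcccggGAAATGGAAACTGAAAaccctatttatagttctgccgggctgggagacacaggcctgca
Irf7, chr1:205800028-205800147, minus strand: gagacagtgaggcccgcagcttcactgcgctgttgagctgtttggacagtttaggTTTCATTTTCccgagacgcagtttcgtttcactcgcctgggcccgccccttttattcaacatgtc
Irf1, chr10:38417737-38417856, plus strand: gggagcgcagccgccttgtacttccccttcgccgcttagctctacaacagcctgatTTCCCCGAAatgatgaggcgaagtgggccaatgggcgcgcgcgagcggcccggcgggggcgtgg
Irf9, chr15:33065681-33065800, plus strand: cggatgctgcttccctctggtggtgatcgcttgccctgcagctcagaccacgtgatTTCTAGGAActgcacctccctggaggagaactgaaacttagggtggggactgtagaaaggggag
Oas1b held 2 overlapping ISRE cores, from 59 to 44 bases before the gene start, and its GAS core lay farther upstream, outside the printed stretch. The ISRE core of Irf7 read on the opposite strand, from 69 to 60 bases before the start. A match of letters describes the sequence and does not show binding.

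Before the results, the arrays were set against their labels. The Y-linked genes Ddx3y and Eif2s3y were well above background on both Fi1 arrays, on both RClone-2 arrays and on RMAPC-1 array B, with Eif2s3y between 1.60 and 2.09. These and all levels below are log2 signals relative to the 75th percentile of the array, so that 0 is the signal of that percentile. On RMAPC-1 array A (-7.05) and on both 3C3 arrays (-8.23 and -8.01), which are labelled male as well, Eif2s3y was not well above background, as in the lines labelled female. The 2 RMAPC-1 arrays therefore went against each other, and 3C3 against its label. They also differed widely over all probes: 16.6% of 29309 probes were over 1 log2 apart on the 2 RMAPC-1 arrays, against 3.06% to 6.33% in the other lines. Values without these lines are given beside the Isg15, Irf7, Stat2 and Irf1 results and the pathway counts. Hypoblast markers (Gata4, Gata6, Sox17, Sox7, Pdgfra, Foxa2, Dab2, Lama1) were above background on all 12 stem cell arrays, but 7 of the 8 were so on both RClone-2 arrays as well, and the groups differed in level. The median of the 8 was 4.66 in blastocyst lines, 5.07 in bone marrow lines and -2.90 in RClone-2. All 8 mesenchymal markers were above background on both RClone-2 arrays and 4 of 8 on all arrays of either stem cell group, with medians of -6.31 in blastocyst lines, -5.86 in bone marrow lines and 3.42 in RClone-2. Of 10 blood and immune markers with a probe, Cd68, Csf1r, Cd14 and Laptm5 were above background on all 14 arrays, and Itgam and Cd3e on none. Over the 10, group means lay between -8.32 and -1.34 in blastocyst lines, -7.99 and -1.34 in bone marrow lines, and -8.57 and 3.72 in RClone-2, where Cd14 was the highest. Their part in the results was not tested. Between 61.7% and 68.0% of probes were well above background per array. Fewer cells of a type and less RNA per cell cannot be told apart in these bulk samples.

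**Figure D1:**
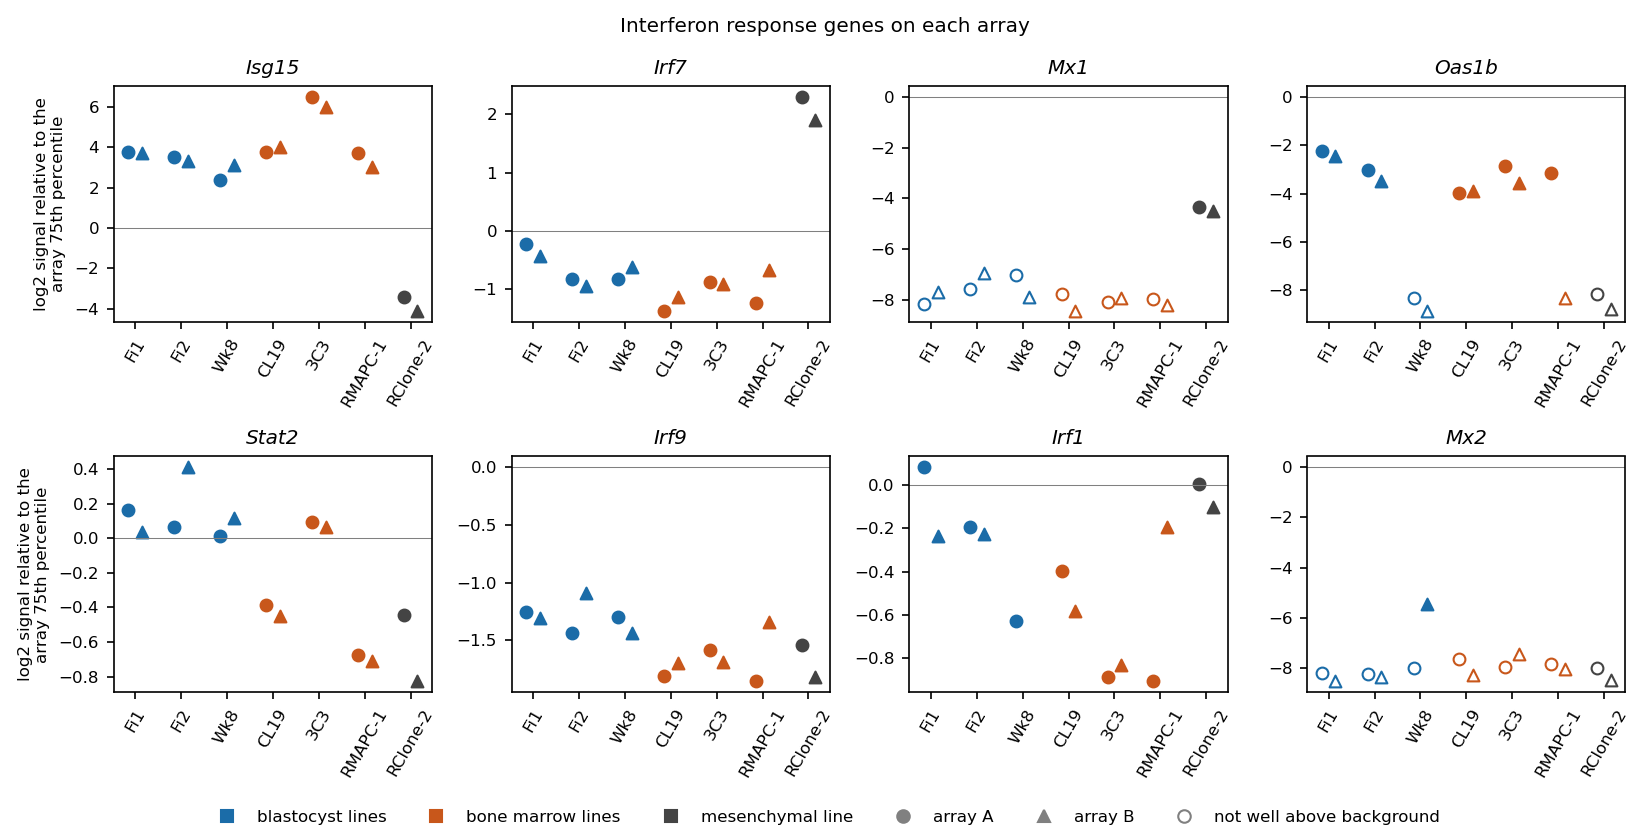
Level of each interferon response gene on every array (log2 signal relative to the array's 75th percentile, vertical axes differ), blastocyst lines in blue, bone marrow lines in orange and the mesenchymal line in grey; circles are arrays A, triangles arrays B, and open symbols were not well above background. Isg15 lay above 2.3 on all stem cell arrays and below -3.3 on both RClone-2 arrays, Irf7 and Mx1 lay highest in RClone-2, and Oas1b was on or off by line and, in RMAPC-1, by array.

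Isg15, a ubiquitin-like protein that is conjugated to other proteins, was higher in the stem cell lines of both origins than in RClone-2. In the blastocyst lines its log2 level was 3.75 and 3.73 in Fi1 (arrays A and B), 3.50 and 3.31 in Fi2, and 2.36 and 3.13 in Wk8. In the bone marrow lines it was 3.74 and 3.98 in CL19, 6.49 and 5.96 in 3C3, and 3.70 and 3.01 in RMAPC-1, against -3.40 and -4.10 in RClone-2. No stem cell array overlapped with RClone-2. The processed signal was 52988 and 37676 in 3C3 and 56.9 and 36.7 in RClone-2, and no spot of a member was saturated. The bone marrow lines averaged 4.48 ± 1.53 (SD, n = 3 lines) and RClone-2 -3.75, a log2 difference of 8.23 ± 1.08 (SE, adjusted p = 0.0018). The blastocyst lines averaged 3.30 ± 0.51 (SD, n = 3 lines), a difference of 7.05 ± 1.08 from RClone-2, or 132-fold (adjusted p = 0.00323). These adjusted p-values are from limma on line means, over all 29309 probes kept. No blastocyst line shared a slide with RClone-2, so the blastocyst difference is also one between slides. Without 3C3 the bone marrow difference was 7.36, without RMAPC-1 it was 8.79 and without both 7.61 (adjusted p = 0.000497, 0.00294 and 0.0048). Among lines that shared slides, 3C3 and RMAPC-1 against RClone-2, it was 8.54 (adjusted p = 0.0359).

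By line, Isg15 was ordered 3C3, CL19, Fi1, Fi2, RMAPC-1, Wk8 and RClone-2. The arrays of 3C3 lay 1.98 above those of any other line. The arrays of CL19 and Fi1, of Fi2 and RMAPC-1, and of RMAPC-1 and Wk8 overlapped. Between origins, the blastocyst lines averaged 1.18 lower than the bone marrow lines, with a 95% confidence interval of -3.06 to 0.69 and an adjusted p of 0.274. Without 3C3 that difference was -0.31.

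Irf7, the factor that amplifies interferon transcription, went the other way. Its level was -0.22 and -0.43 in Fi1, -0.82 and -0.95 in Fi2, and -0.83 and -0.61 in Wk8. In the bone marrow lines it was -1.37 and -1.14 in CL19, -0.88 and -0.91 in 3C3, and -1.23 and -0.66 in RMAPC-1, against 2.30 and 1.91 in RClone-2. All 12 stem cell arrays lay below both RClone-2 arrays. The bone marrow lines averaged -1.03 ± 0.19 (SD, n = 3 lines), a difference of -3.14 ± 0.27 from RClone-2 at 2.11 (SE, adjusted p = 0.000306). The blastocyst lines averaged -0.64 ± 0.29 (SD, n = 3 lines), a difference of -2.75 ± 0.27, or 6.72-fold lower (adjusted p = 0.000528). Without 3C3 and RMAPC-1 the bone marrow difference was -3.36 (adjusted p = 0.0103). Between origins the difference was 0.39, with an interval from -0.08 to 0.85 (adjusted p = 0.163). Fi1 lay above the other stem cell lines, whose neighbours in the order overlapped.

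Mx1, a dynamin-like antiviral GTPase, was well above background in RClone-2 alone, on both arrays (-4.36 and -4.51). On the 12 stem cell arrays it lay between -8.43 and -6.95 and was not well above background, so only a bound can be given. It was at least 3.05-fold lower in the bone marrow lines and at least 4.02-fold lower in the blastocyst lines than in RClone-2. The measured means were -8.06 in bone marrow lines and -7.54 in blastocyst lines, against -4.44 in RClone-2. Mx1 passed the filter through RClone-2 alone, so it had to be lower in the other lines, and its calls are given as a description. A bound sets the bright group's mean against the lowest signal called well above background on the dim arrays. With normexp background correction these differences were -0.43 and -0.38 and passed in neither comparison (adjusted p = 0.617 and 0.682). Mx2, its paralog, was well above background on 1 of 14 arrays, Wk8 array B (-5.47), and lay between -8.54 and -7.44 on the rest.

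Oas1b, a member of the 2′-5′-oligoadenylate synthetase family whose products activate RNase L, was on in some lines and off in others. It was -2.24 and -2.43 in Fi1, -3.03 and -3.49 in Fi2, -3.98 and -3.91 in CL19, and -2.87 and -3.55 in 3C3. It was not well above background in Wk8 (-8.33 and -8.85), the only Wistar-Kyoto line, or in RClone-2 (-8.16 and -8.78). In RMAPC-1 array A gave -3.14, above background, and array B -8.33, not above it, so array A was at least 7.75-fold higher. The 9 arrays above background spanned -3.98 to -2.24, and the other 5 spanned -8.85 to -8.16. None of the 3 comparisons passed: the bone marrow lines, measured on 5 of 6 arrays, were at least 4.42-fold higher than RClone-2 (adjusted p = 0.203). The blastocyst lines, measured on 4 of 6 arrays, were at least 3.27-fold higher (adjusted p = 0.241). Leaving out Wk8, the stem cell line with Oas1b off on both arrays, also removes its share of the common spread. Both calls then passed (adjusted p = 0.0205 in the bone marrow lines and 0.00955 in the blastocyst lines), against a level at background in RClone-2. Oas1b passed the filter through stem cell lines alone, so it had to be lower in RClone-2, and these calls are given as a description. With normexp and all lines the differences were 0.82 and 0.89 (adjusted p = 0.559 and 0.511). Between origins the difference was -0.43 with an interval of -4.60 to 3.74 (adjusted p = 0.862). Of 41012 probes, 21, Oas1b included, were well above background on the same stem cell arrays as Oas1b and off on both Wk8 arrays and RMAPC-1 array B. For the opposite RMAPC-1 pattern, on with array B and off with array A, there were 5.

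Stat2 and Irf9, subunits of ISGF3, and Irf1, a factor that binds similar elements, were well above background on all 14 arrays and differed little. Stat2 was 0.16 and 0.04 in Fi1, 0.06 and 0.41 in Fi2, and 0.01 and 0.12 in Wk8. It was -0.39 and -0.45 in CL19, 0.09 and 0.06 in 3C3, and -0.67 and -0.71 in RMAPC-1, against -0.45 and -0.83 in RClone-2. The blastocyst arrays and those of 3C3 lay above the remaining arrays. The blastocyst difference from RClone-2 was 0.77 ± 0.30 (SE, adjusted p = 0.0772). Leaving out 3C3 and RMAPC-1 keeps this difference at 0.77 and only removes their share of the common spread. The SD over lines was 0.39 in bone marrow and 0.09 in blastocyst lines. The bone marrow difference from RClone-2 was 0.29 (adjusted p = 0.462), and that between origins 0.48, with an interval of -0.04 to 1.00 (adjusted p = 0.132).

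Irf9 was -1.26 and -1.30 in Fi1, -1.44 and -1.09 in Fi2, and -1.30 and -1.44 in Wk8. It was -1.80 and -1.69 in CL19, -1.59 and -1.69 in 3C3, and -1.85 and -1.34 in RMAPC-1, with -1.54 and -1.82 in RClone-2. The line means of the origins did not overlap, although RMAPC-1 array B lay among the blastocyst arrays. The blastocyst lines averaged -1.30 ± 0.06 and the bone marrow lines -1.66 ± 0.08 (SD, n = 3 lines each), a difference of 0.36 ± 0.11 (SE, adjusted p = 0.0478), the only member to pass between origins. The call was lost under 17 of 26 other settings, among them the fits without any 1 of the 6 stem cell lines, without RMAPC-1 array A (0.27, adjusted p = 0.241) and with a term for the slide pair (0.45, adjusted p = 0.163). The differences from RClone-2 were 0.02 in the bone marrow lines and 0.38 in the blastocyst lines (adjusted p = 0.931 and 0.0834).

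Irf1 was 0.08 and -0.23 in Fi1, -0.19 and -0.23 in Fi2, and -0.63 on Wk8 array A. The spot on Wk8 array B was marked as an outlier by the scanner software and left out, so that line rests on 1 array. It was -0.39 and -0.58 in CL19, -0.89 and -0.83 in 3C3, and -0.91 and -0.19 in RMAPC-1, with 0.01 and -0.10 in RClone-2. The arrays of 3C3 and RMAPC-1 array A lay below every other array. The bone marrow difference from RClone-2 was -0.58, with an interval from -1.24 to 0.08 (adjusted p = 0.125), that of the blastocyst lines -0.26, and that between origins 0.33 (adjusted p = 0.463 and 0.228). With the single outlier spot on Wk8 array B kept, they were -0.013 in the blastocyst lines against RClone-2 (adjusted p = 0.966) and 0.57 between origins, which then passed (adjusted p = 0.0366). Without 3C3 and RMAPC-1 the bone marrow difference was -0.44 (adjusted p = 0.412).

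**Figure D2:**
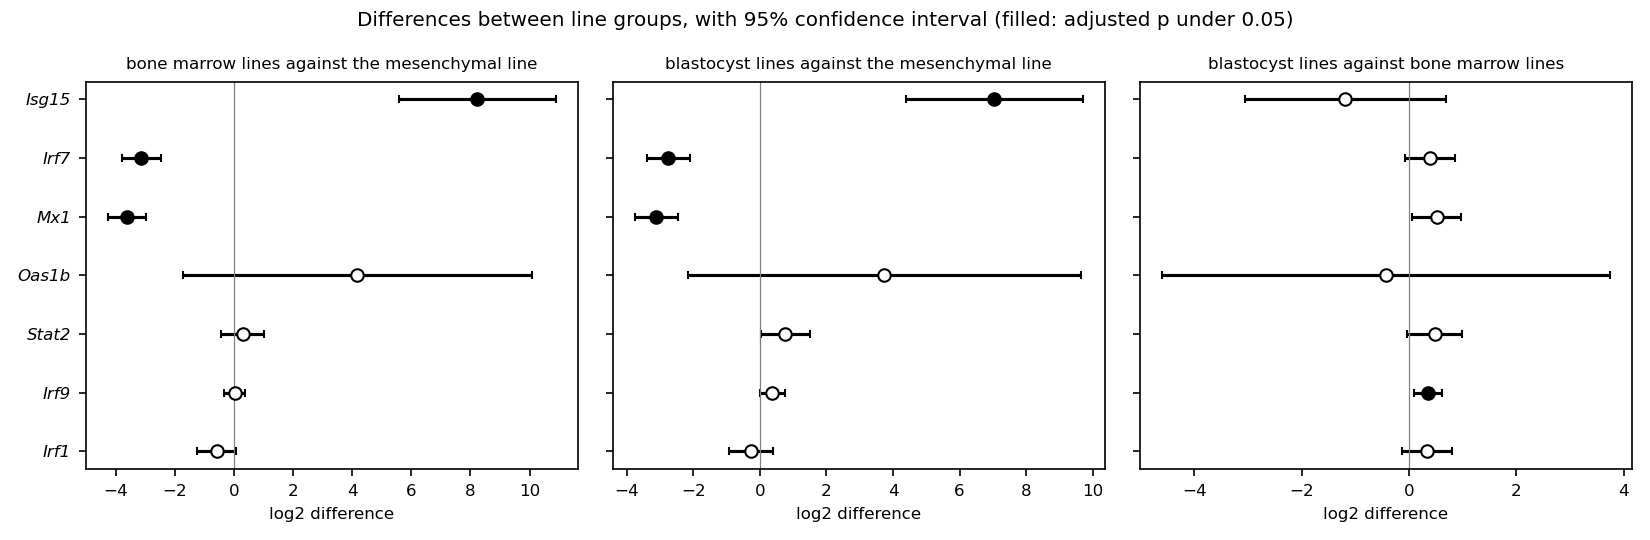
Log2 difference of the 7 tested interferon response genes in each comparison, the first-named lines minus those they are set against, with the 95% confidence interval from limma on line means. Filled points passed at an adjusted p under 0.05: Isg15 (higher), Irf7 and Mx1 (lower) in both comparisons with RClone-2, and Irf9 between origins. Mx1 in the stem cell lines, and Oas1b in Wk8, RClone-2 and on RMAPC-1 array B, were at background.

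In the comparison of bone marrow lines with RClone-2, 1 of the 7 tested members was higher and 2 were lower, 1 of them Mx1, which passed the filter only through RClone-2. Of all 29309 probes, 27% were higher and 19.8% lower. In that of the blastocyst lines with RClone-2, 1 of 7 was higher and 2 were lower, against 22.9% higher and 25.8% lower of all probes. Both comparisons share RClone-2 and are not independent. Between blastocyst and bone marrow lines 1 of 7 was higher and 0 were lower, against 9.13% and 23.3% of all probes. The count of 0 lower members is by limma, and no member was lower at an unadjusted p under 0.05 either. Counts of this size among 7 genes are not set apart from those of all probes, and the members are described by their sizes and directions. Among probes called between origins the share that was higher moved to 84.7% on unscaled signals from 28.2% on scaled ones, so the direction there depended on the scaling, while the median over all probes moved to 0.28 on unscaled signals from -0.20.

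Beyond the members, 116 genes of the pathway were listed by role, of which 90 had a probe and 77 were tested, each by its brightest probe. Some passed the filter through RClone-2 alone, such as Ifit2 and Tlr4, or through stem cell lines alone, such as Rsad2 and Ddx60. Their direction against RClone-2 was set by that, and the counts here and by list include them. In bone marrow lines against RClone-2, 18 were higher and 29 lower (23.4% and 37.7%), with a median difference of -0.21, against 0.19 over all probes. In blastocyst lines against RClone-2, 17 were higher and 21 lower (22.1% and 27.3%), with a median of -0.02, against -0.07. These shares stand beside 27% higher and 19.8% lower of all probes in bone marrow lines, and 22.9% and 25.8% in blastocyst lines. On unscaled signals the balance in blastocyst lines turned round, with 27 higher and 16 lower and a median of 0.43. That of all 29309 probes turned as well, with 10457 higher and 4653 lower and a median of 0.38. With normexp the counts were 11 and 22 in bone marrow lines and 11 and 18 in blastocyst lines. Fewer of all probes passed with normexp as well, as given further down. Without 3C3 and RMAPC-1, 11 of the 18 higher and 20 of the 29 lower genes still passed, with CL19 alone as bone marrow line, and all of them kept their direction.

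Upstream of the response, the interferon ligands were dim. Of 12 listed, 6 had a probe and 2, Ifna4 and Ifna16l1, were tested and passed in no comparison, with group means of -5.90 and -5.07 in blastocyst lines, -5.65 and -4.67 in bone marrow lines, and -6.16 and -4.92 in RClone-2. Among receptors and JAK-STAT genes, the receptor-bound kinase Jak1 was lower than in RClone-2, with log2 differences of -1.98 in bone marrow and -1.68 in blastocyst lines, whereas Jak2 was higher (1.52 and 0.88). Il10rb, a chain of the type III interferon receptor, had log2 differences of -1.37 and -1.06.

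Within the IRF family, Irf5 was lower in both groups, with log2 differences of -3.14 and -3.32. Among sensors, Sting1, the adaptor of cytosolic DNA sensing, averaged -1.77 in bone marrow lines and -1.12 in blastocyst lines, against -5.00 in RClone-2. Dhx58, which encodes the RNA sensor LGP2, was 6.22-fold and 10.0-fold higher in the 2 groups, with RClone-2 array A not well above background. Tlr4, the receptor for bacterial lipopolysaccharide, was at least 90.2-fold lower in bone marrow lines, where it was not well above background. It passed the filter through RClone-2 alone, so it had to be lower in the other lines.

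Among antiviral effectors, Rsad2, which encodes viperin, averaged -1.60 in bone marrow lines and -0.54 in blastocyst lines and was not well above background in RClone-2, a difference of at least 28.7-fold and at least 59.6-fold. Ifitm1 was 282-fold and 84.9-fold higher in bone marrow and blastocyst lines, and its relative Ifitm3 was lower, at -7.51 to -4.84 on the 12 stem cell arrays, of which 6 were well above background, against 3.46 and 3.08 in RClone-2. Ifit2, which binds foreign RNA, averaged -7.81 in bone marrow lines and -7.65 in blastocyst lines, not well above background, against -2.24 in RClone-2, where it was at least 18.1-fold higher than in blastocyst lines. Like Mx1, Ifit2 passed the filter through RClone-2 alone, so it had to be lower in the other lines. Of 19 effectors tested, members included, 6 were higher and 5 lower in bone marrow lines, and 7 and 5 in blastocyst lines. The background of all probes was 27% and 19.8% in bone marrow lines, and 22.9% and 25.8% in blastocyst lines.

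In the ISG15 conjugation system the modifier and the enzyme that removes it went apart. Usp18, the protease that removes ISG15 and also dampens the interferon receptor, had log2 levels between -5.59 and -2.51 on the 12 stem cell arrays, against 1.55 and 1.91 in RClone-2. The difference was -5.91 ± 0.89 in bone marrow lines and -6.18 ± 0.89 in blastocyst lines (SE, adjusted p = 0.00306 and 0.00255). Uba7, the enzyme that activates ISG15, was lower in bone marrow lines (-1.69, adjusted p = 0.023), and its value on RMAPC-1 array A (-6.74) was not above background. Of the 6 genes tested in this list, Isg15 included, 1 was higher and 2 were lower in bone marrow lines. In blastocyst lines 1 was higher and 1 lower. Beside these stand 27% higher and 19.8% lower of all probes in bone marrow lines, and 22.9% and 25.8% in blastocyst lines. Counts of this size among 6 genes are not set apart from those of all probes.

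Of 21 other interferon-stimulated genes, 2 were higher and 12 lower in bone marrow lines than in RClone-2, and 1 was higher and 8 lower in blastocyst lines. Of all probes, 27% were higher and 19.8% lower in bone marrow lines, and 22.9% and 25.8% in blastocyst lines. Lgals3bp, a secreted glycoprotein, averaged -4.41 in bone marrow lines and -2.39 in blastocyst lines, against 4.31 in RClone-2. Ifi27 was 27.6-fold lower in bone marrow lines, and the guanylate-binding protein gene Gbp2 averaged -1.27 in bone marrow lines, against 2.54 in RClone-2. Ddx60, an RNA helicase, was at least 11.3-fold and at least 6.59-fold higher, and in RClone-2 it was not well above background. Among negative regulators, the phosphatase Ptpn6 was higher, with log2 differences of 3.91 and 3.78, and Ptpn1 3.13-fold and 3.05-fold lower.

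**Figure D3:**
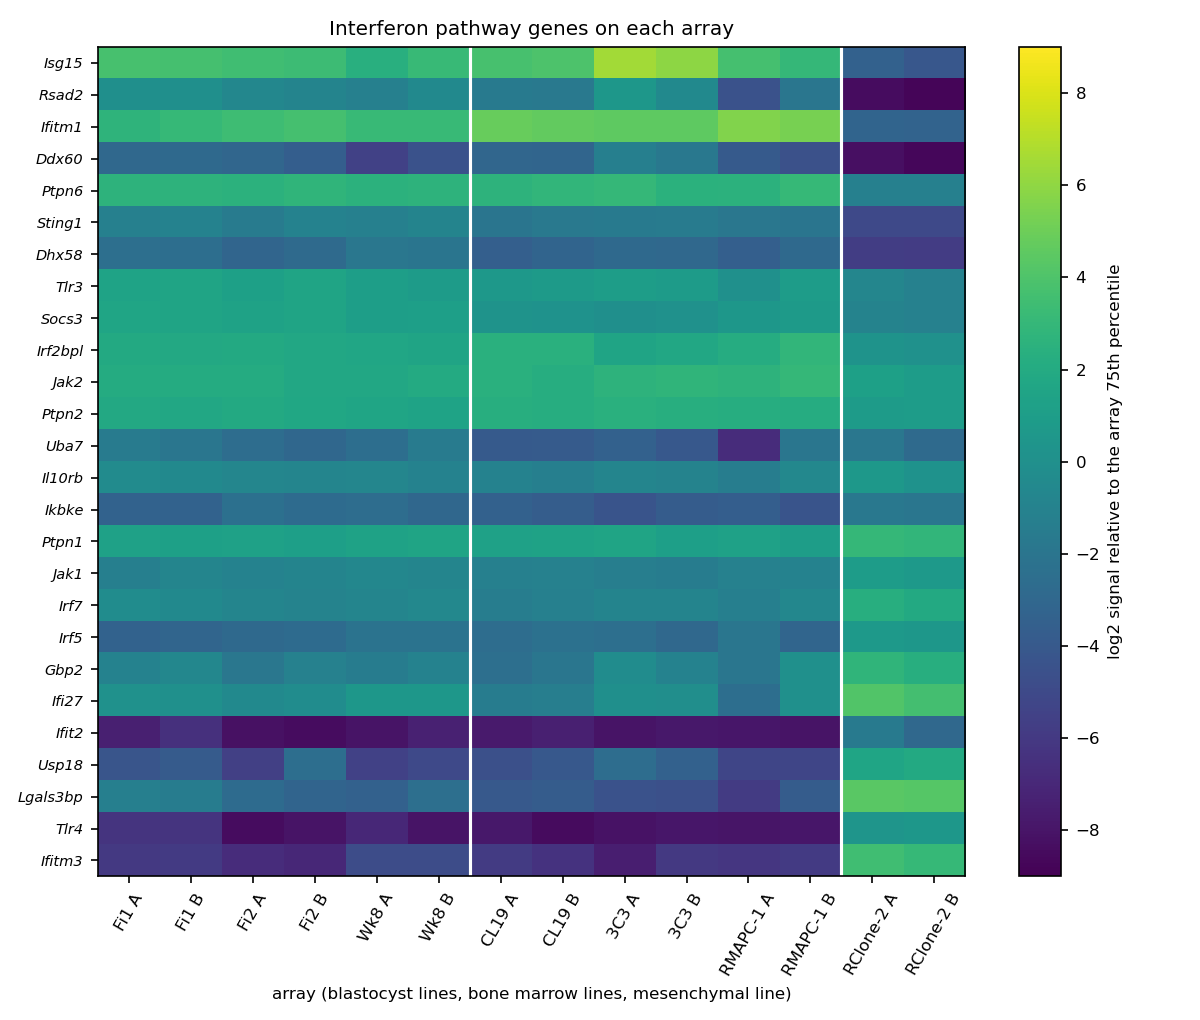
Log2 level of 26 of the pathway genes that the rule for named genes gave in the comparisons with RClone-2 (rows) on each array (columns; blastocyst, bone marrow and mesenchymal lines parted by white lines), with the stem-minus-RClone-2 difference falling downward. Isg15, Rsad2 and Ifitm1 were bright in the stem cell lines and dark in RClone-2, and Usp18, Lgals3bp, Tlr4 and Ifitm3 the reverse.

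Between origins, 16 of the 77 other pathway genes were higher and 7 lower in blastocyst lines than in bone marrow lines (20.8% and 9.09%, against 9.13% and 23.3% of all probes), with a median of 0.28, against -0.20 over all probes. On unscaled signals 30 were higher and 2 lower, and with normexp 3 and 1. The shares and the median of all probes moved with the scaling as well, as given above. Bst2, which tethers budding virus particles, averaged -0.02 in blastocyst lines and -2.22 in bone marrow lines, and the peptide transporter Tap1 1.02 and -0.58 (adjusted p = 0.021 and 0.00869). Uba7 was 3.52-fold, Nmi 2.76-fold and Parp9 2.38-fold higher, and Ifnar1, a chain of the type I interferon receptor, 1.62-fold. For Uba7, Parp9, Nmi and Bst2 the RMAPC-1 arrays differed widely. Array A gave -6.74, -6.03, -3.05 and -4.49, with Uba7 and Parp9 not well above background. Array B gave -1.91, -1.84, 0.84 and -0.37, against blastocyst means of -2.18, -2.17, 0.25 and -0.02. On the CL19 and 3C3 arrays these genes lay below the blastocyst means. Ifitm1 was lower, at 3.19 in blastocyst lines and 4.92 in bone marrow lines. These counts moved with single lines or arrays. Without RMAPC-1 array A 7 were higher and 4 lower, without 3C3 7 and 3, and without RMAPC-1 4 and 4. Calls over all probes moved as well, from 9492 to between 3025 and 9806 on leaving out a line or array. Without 3C3 and RMAPC-1, with CL19 alone as bone marrow line, the median of the 77 was 0.26. With a term for the slide pair 0 were higher and 0 lower. In that fit limma called 0 of 29309 probes, and 7577 had an unadjusted p under 0.05.

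The 2 RMAPC-1 arrays were set side by side, 1 array each and without a test. Of the 77 genes, 29 were over 1 log2 higher on array B and 3 on array A, while over all probes 7.69% were higher on B and 8.90% on A. In the other lines 0 to 7 of the 77 were over 1 higher on array B. The 29 were not spread evenly: they were 17 of 21 other interferon-stimulated genes, 7 of 17 antiviral effectors, 3 of 5 ISG15 conjugation genes, 1 of 6 IRF genes and 1 of 12 sensing genes, but 0 of 7 receptor and JAK-STAT genes and 0 of 9 negative regulators. The genes named here were chosen after their values were seen. Ifi44 was -7.01 on A and -1.04 on B, Ifih1, which encodes the RNA sensor MDA5, -8.06 and -3.08, and Psmb9, an immunoproteasome subunit, -1.53 and 2.78. For Ifi44, both CL19 arrays (-1.90 and -2.22) and both 3C3 arrays (-2.60 and -1.85) lay between the 2 RMAPC-1 values.

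Of the members, Isg15 was 0.69 higher on array A, Stat2 differed by 0.04, and Irf1, Irf7 and Irf9 were 0.71, 0.57 and 0.52 higher on array B. Of the 7 tested members, Oas1b alone differed by over 1, and in the opposite direction to the 29 genes. Whether the arrays hold RNA of the same culture is not given in the labels.

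**Figure D4:**
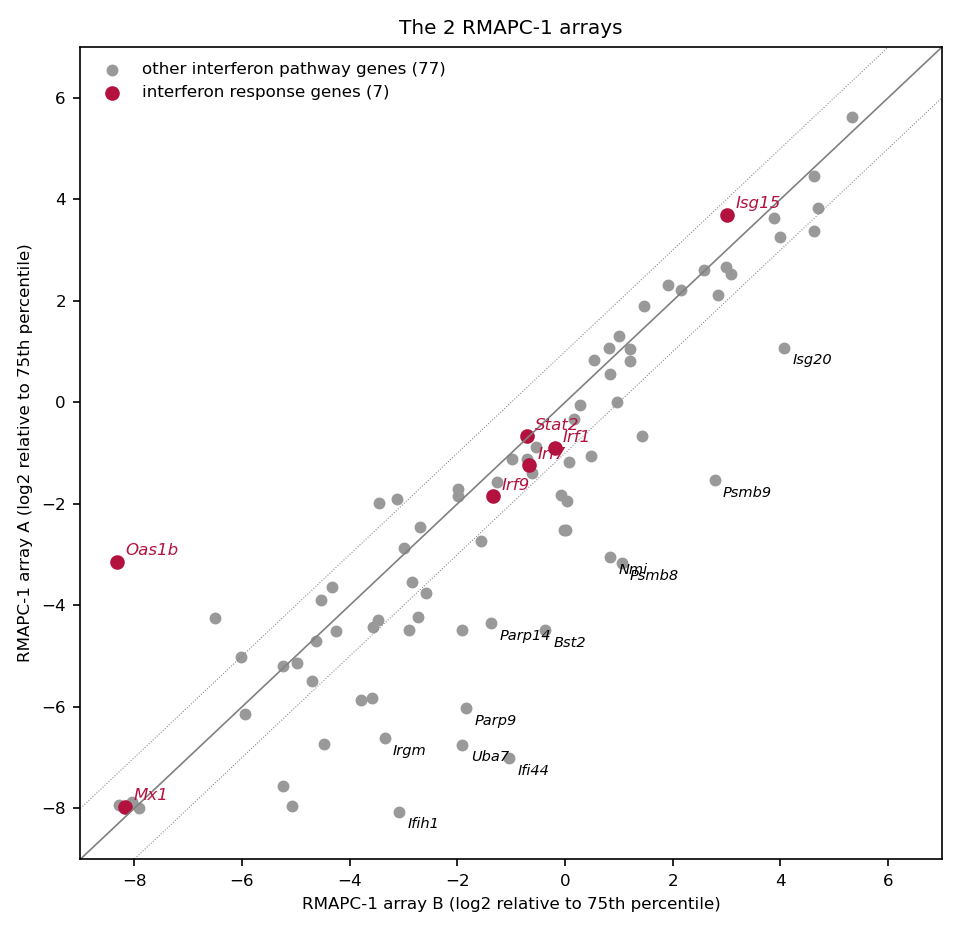
Log2 levels of the 77 other pathway genes (grey) and the 7 tested members (red) on RMAPC-1 array B (horizontal) and array A (vertical), 1 array each; the solid line marks equal levels and the dotted lines a difference of 1. Most genes away from the line lay below it, higher on array B, and Oas1b lay far above it, at -3.14 on A and -8.33 on B.

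**Figure D5:**
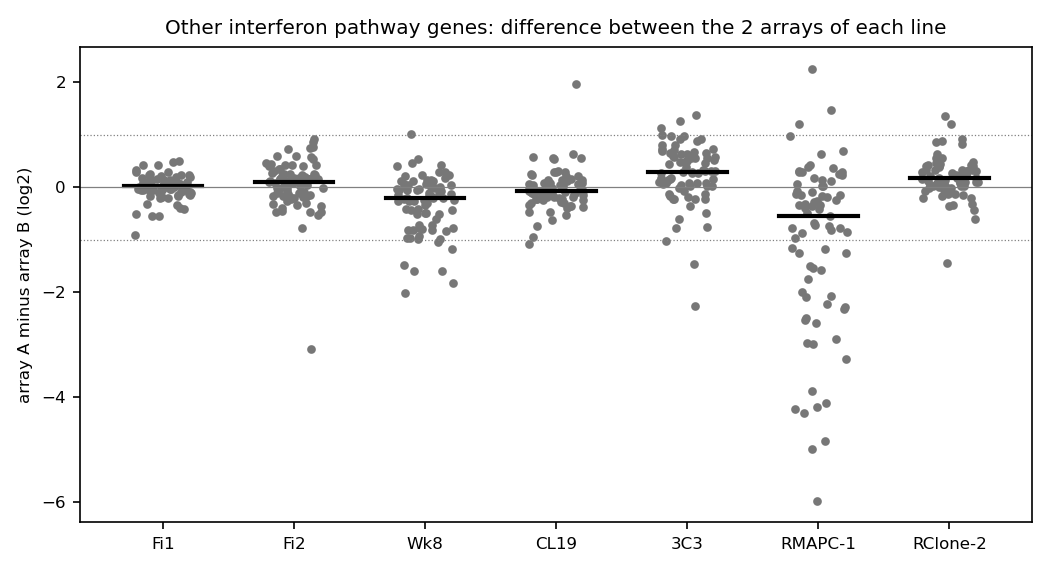
Array A minus array B (log2) for the same 77 genes in each line; each point is a gene, the black bar the median, dotted lines a difference of 1. The medians lay between -0.21 and 0.29 in the other lines and at -0.55 in RMAPC-1, where 29 genes lay below -1.

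Over the 14 arrays, the genes most alike in pattern were found by Pearson correlation with each member's probe, as a description, since the arrays share lines and slides and RClone-2 dominates most patterns. For Isg15 they were Adgrl1 (0.976), Tex15 and Ucp1 (both 0.975), and for Irf7 Fbn1, Hsd3b7 (both 0.988) and Il17rc (0.984). For Mx1 they were Mus81, Arl6ip5 (both 0.978) and Lmo4 (0.973), and for Oas1b Elfn1 (0.975), Ypel4 (0.954) and Wdr37 (0.953). The members of flat pattern had lower values, such as Stat2 with Chrm4 (0.916), Irf9 with Tmem106a (0.926) and, over 13 arrays, Irf1 with Sphk1 (0.926).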

How the data were processed

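Total RNA of 7 rat lines was labelled with Cy3 and hybridised to 14 Agilent arrays on 4 slides, with Fi1, Fi2, Wk8 and CL19 on slides 1 and 3 and the rest on slides 2 and 4. Per the submitters' processing notes and the file headers, the authors extracted spots with Agilent Feature Extraction 10.7.3.1. In the deposited scanner tables each spot has a processed signal, a mean signal and a background, each an intensity, of which the processed signal is background-corrected and unscaled. The deposited tables also hold other values, namely flags for outlier, saturated and well above background spots. A deposited series table of log2 values equalled the log2 processed signals when both were sorted, and served as a check only.

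The log2 processed signal minus the 75th percentile of the array's 43379 non-control spots was used, spots marked as outliers were left out and spots of 1 probe averaged. Of 41012 probes, 17181 were named through an accession and 3590 through a symbol in a RefSeq table (GRCr8), and 20241 kept the name in the files. Kept probes, 29309, had both arrays of 1 line or more well above background.

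Arrays A and B were averaged. Whether they came from separate cultures is not in the labels, so p-values measure the spread between lines of an origin. The 3 comparisons were made on line means in R 4.3.3 with lmFit and eBayes of limma 3.58.1, which left 4 residual degrees of freedom. P-values were adjusted by Benjamini-Hochberg over all kept probes, with a threshold of 0.05. RClone-2, a single line, was assumed to vary like the others. The number of arrays and lines limits the precision. Alternatives covered background correction, scaling, filter, probe choice, outlier spots, slide, sex, array letter and lines left out. That without both 3C3 and RMAPC-1 was added after seeing the data.

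The members, pathway lists and tests were chosen with earlier results of these data known. Named pathway genes are up to 4 per list and comparison, those of largest absolute difference among those that passed, and not all of them are printed. The lists held interferon ligands, receptors and JAK-STAT, the IRF family, nucleic acid sensing, antiviral effectors, ISG15 conjugation, other interferon-stimulated genes and negative regulators. A gene is represented by its kept probe of highest mean level.

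Results on some listed genes are not reported here, although the list counts include them.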

Additional observations from a re-analysis of the deposited data

Results flagged for a closer look

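Each member's 6 arrays per stem cell origin were searched for an array far from the rest, by the gap to its nearest neighbour over the whole range. Of 16 sets of arrays, 2 held such an array. The rule's rate of about 1 in 20 by chance takes the 6 arrays as independent. Each set was 3 lines with 2 arrays each, and some sets lay at background. That rate therefore does not hold here, and the 2 are given as a description. Oas1b on RMAPC-1 array B, at a log2 level of -8.33, lay apart from the other 5 bone marrow arrays, and the gap was 0.796 of the range. Mx2 on Wk8 array B, at -5.47, lay above the other 5 blastocyst arrays by 0.831 of the range, and it was the only array on which Mx2 was well above background. Wk8 array A gave -8.02.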

How the results depend on the processing

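For Isg15 and Irf7 the direction against RClone-2 was the same in every alternative in which they were tested, and their calls passed in all of them. Mx1 kept its direction as well, but it passed the filter through RClone-2 alone, so that is a description. The difference of Isg15 ranged from 6.91 to 8.80 in bone marrow lines and 5.66 to 7.98 in blastocyst lines, and that of Irf7 from -3.46 to -2.81 and -2.93 to -2.30. Mx1 did not pass with normexp, and it was not tested where a probe had to be above background on all arrays. Over the 21 differences of the members and 533 alternative values, 480 kept direction and side of the threshold, 19 lost the call, 18 gained one and 16 turned sign. The cause of these changes was not tested.

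Against RClone-2, 5 members passed on unscaled signals in blastocyst lines, and leaving out a line or array gave 3 to 4 in either comparison. Between origins 1 member passed in the fit reported. There were 5 on unscaled signals, 2 with the percentile taken over probes detected throughout, 2 with outlier spots kept and 2 with line as a random block. On unscaled signals 9059 of all 29309 probes passed between origins, 7670 of them higher, against 9492 and 2676 in the fit reported. In blastocyst lines against RClone-2 15110 passed unscaled, 10457 of them higher, against 14268 and 6699. With the percentile over probes detected throughout, 7269 of all probes passed between origins. By limma 0 members passed with normexp (0 at an unadjusted p under 0.05), the slide pair term (1), slide as block (0), lines that share slides (1), sex as covariate, which rests on labels that 3C3 and RMAPC-1 array A went against (2), and without 3C3 and RMAPC-1 (1). Leaving out a line or array gave 0 to 1 (0 to 3 at an unadjusted p).

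Over all probes, normexp gave 6891 in bone marrow lines against RClone-2, 6522 in blastocyst lines against RClone-2 and 1618 between origins. The slide pair term gave 7257 in blastocyst lines and 0 between origins (7577 at an unadjusted p). Without 3C3 and RMAPC-1, 7581 passed in bone marrow lines and 0 between origins, and 0 among lines that share slides (6177 at an unadjusted p). Between origins slide as block gave 3597, sex as covariate 5118, and leaving out a line or array 3025 to 9806.

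The differences that turned sign were small or rested on background signals. That of Irf9 in bone marrow lines against RClone-2 (0.02) was -0.014 unscaled, -0.063 with the percentile over detected probes, -0.12 with the median, -0.049 with quantile normalization, -0.069 without 3C3 and RMAPC-1, and -0.21 to 0.24 on leaving out a line or array. Irf1 in blastocyst lines against RClone-2 was 0.23 unscaled. Oas1b between origins was 0.046 unscaled, 0.077 with normexp, 0.076 with sex as covariate, and -1.63 to 1.495 on leaving out a line or array.

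The array letters did not pair the lines: deviations of the B arrays correlated at -0.24 to 0.18 between lines (median 0.01). With the array letter as a replicate block and line as random, Irf9 between origins lost its call (0.36, adjusted p = 0.0545), Stat2 gained one (0.48, adjusted p = 0.0451, and 0.77, adjusted p = 0.0189, in blastocyst lines against RClone-2), and the members passing were 3 in bone marrow lines and 4 in blastocyst lines against RClone-2, and 1 between origins.

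Limits: RClone-2 is 1 line, each gene had 1 probe, and Mx1, Mx2 and Oas1b were near background on many arrays.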

Other observations

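Of the 77 other pathway genes, 6 had both 3C3 arrays above those of every other stem cell line (7.79%, against 4.69% of all probes). There were 2 with both 3C3 arrays below, where 2.45% of all probes were. The count above was 12 in Fi1 (15.6%, against 4.05% of all probes) and 10 in Wk8 (13%, against 11.1%). It was 2 in Fi2 (2.6%, against 1.71%), 2 in RMAPC-1 (2.6%, against 4.09%) and 0 in CL19, against 2.96%. Fi1, and not 3C3, lay furthest above its share of all probes, and its 12 genes included Bst2, Ifi44, Il10rb and Lgals3bp. The 6 in 3C3 were Ddx60, Herc6, Ifi27l2b, Oasl, Ptpn2 and Rtp4, and genes named here were picked after their values were seen. Rtp4, a receptor transporter protein gene induced by interferon, was 1.61 and 0.68 on the 3C3 arrays and between -3.53 and -0.58 on the other 12. Ddx60 was -1.21 and -1.77 in 3C3 and at most -2.85 elsewhere. Herc6, which in mice encodes a ligase that attaches ISG15, was -2.04 and -2.85 in 3C3 and at most -3.08 elsewhere. Usp18, at -2.56 and -3.44 in 3C3, stayed far below its RClone-2 levels and lay within the range of Fi2, whose arrays gave -5.59 and -2.51. Lgals3bp (-4.43 and -4.60), Nmi (-1.48 and -1.64) and Bst2 (-1.86 and -1.91) were not high in 3C3. Differences between lines of an origin were not tested.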
